A study of Mus musculus with 14 samples.

Results

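Blood vessels are lined by endothelial cells and wrapped by mural cells, the pericytes of capillaries and the smooth muscle of larger vessels. The genes described here are 34 named genes of these cells, taken with every probe set that the platform annotation gives them, among 18193 genes measured. Of the 34 genes, 33 had at least 1 probe set of their own, and Ly6c1 was covered only by a probe set that it shares with Ly6c2. The members had 63 probe sets among 45101 on the array, of which 60 named a single gene. The genes were measured in whole pieces of brain and of vastus lateralis, a thigh muscle, of wild-type mice and of littermates that lack the imprinting center of the Prader-Willi region, labelled PWS-IC del.

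Both genotypes had the same background, an F1 cross between FVB and B6. Each tissue had 4 wild-type and 3 PWS-IC del samples, and every sample was hybridised to 1 short-oligonucleotide array of the Affymetrix mouse 430 2.0 design. The labels call the samples biological replicas and give no age, sex or brain region, and they leave unsaid whether equal numbers in brain and muscle mark 1 animal. The imprinting center controls genes that only the paternal chromosome expresses, and its deletion is used as a model of Prader-Willi syndrome. The series title names differential gene expression and mitochondrial dysfunction as its subject, not the vessels.

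Endothelial cells of every organ share a set of proteins: cadherin and adhesion molecules that join neighbouring cells, receptors for VEGF, angiopoietin, TGF-beta and adrenomedullin, and transcription factors of the ETS and SOX families. Capillaries of the brain add a barrier, made of tight junctions, transporters that carry glucose and organic anions, and pumps that return drugs to the blood. Wnt ligands made by neural cells induce this barrier, and pericytes, which the endothelium attracts with PDGF, maintain it. Capillaries of skeletal muscle have no such barrier and instead take up fatty acids for the fibres. Vessel cells are a small share of both tissues, so their genes read out both how many vessel cells a piece holds and how much of each RNA those cells contain, and in whole tissue fewer cells of a type and less RNA per cell cannot be told apart.

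The arrays followed their labels. Snrpn and Ndn, paternally expressed genes of the Prader-Willi domain, differed between the genotypes by -4.87 and -4.13 log2 units in brain (limma, adjusted p = 2.22e-04 and 2.77e-04), and Ndn by -1.27 in muscle (adjusted p = 0.00439). Snap25, Syt1, Mbp and Gfap, genes of neurons and glia, were above muscle in every wild-type brain array, and Ckm, Acta1, Myh4 and Mylpf, genes of the muscle fibre, were above brain in every wild-type muscle array. Median intensity was 142 to 170.1 in the brain arrays and 88.74 to 96.36 in the muscle arrays. Genes of other tissue were measurable in some pieces: Ckm stood at 10.38 and 9.61 in wild-type brain 1 and 3 but at 6.38 to 7.25 in the other 5 brain arrays, and Snap25 at 9.23 and 7.79 in wild-type muscle 2 and 4 but at 4.00 to 6.96 in the other 5 muscle arrays. Wild-type brain 1 and 2 lay apart from the other brain arrays on the first principal component, at 40.2 and 25.4 against -29.6 to 6.77. They also had the highest striatal neuron and the lowest choroid plexus markers, so member differences tested in brain that moved by over 1.5 times without these 2 arrays are given both ways.

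Which vessel genes both tissues share was read from the wild-type arrays. All values are log2(intensity + 16), a scale that understates changes of dim genes, and brain minus muscle differences on it depend on how the arrays are scaled. Over the genes tested within both tissues and between them, the median difference was 0.52 as deposited, -0.19 after quantile normalization and -0.15 after median centring. Most vessel genes were brighter in muscle: 24 of 33 members fell below muscle in wild-type brain and 7 stood above it (limma, Benjamini-Hochberg adjusted p under 0.05), where 22.4% of all genes tested were lower in brain and 60.2% higher. The median member differed by -0.83, against 0.54 over all genes tested. In PWS-IC del arrays 21 of 31 tested members were lower in brain and 6 higher, beside 20.5% and 58.9% of all genes, and the median member differed by -0.76. Quantile normalization moved the medians to -1.56 in wild type and -1.55 in PWS-IC del, so the size of this difference moved with the scale while its direction held on the 3 scales compared.

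**Figure D1:**
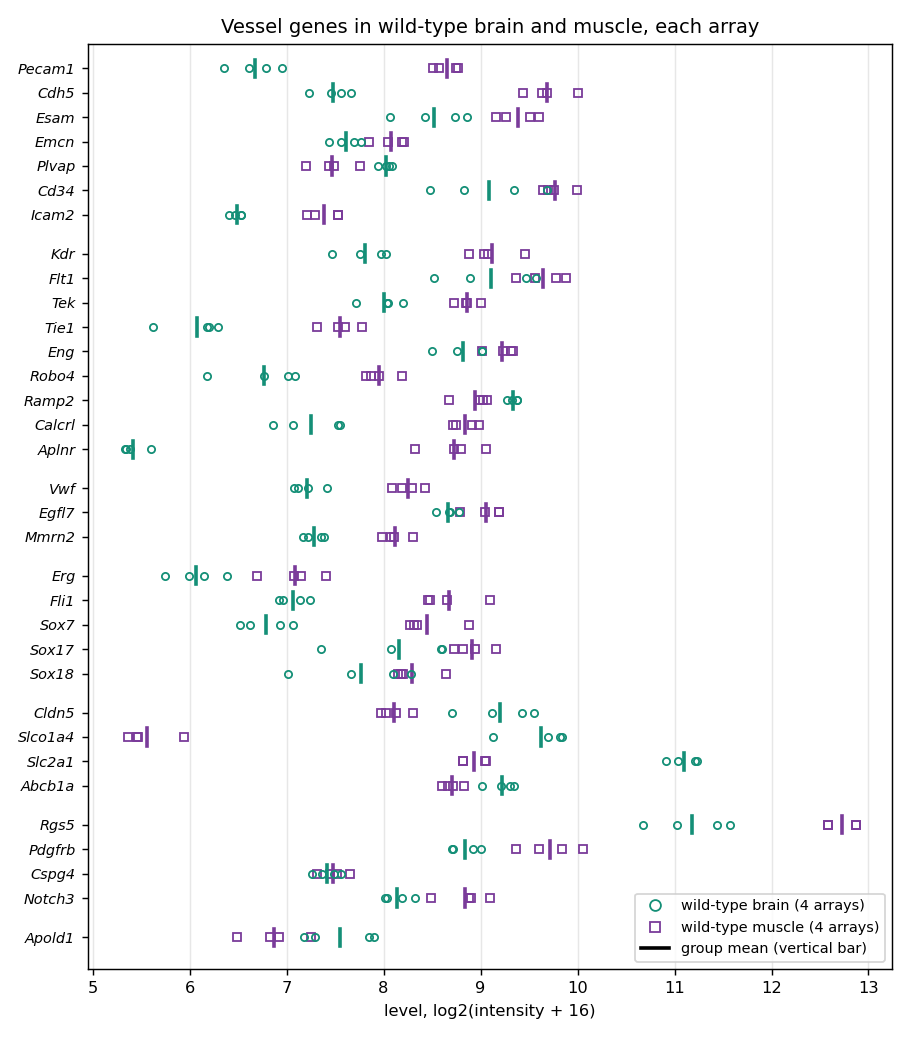
Level of each vessel gene, log2(intensity + 16), in the 4 wild-type brain arrays (circles) and the 4 wild-type muscle arrays (squares), with the group means as vertical bars; genes are grouped from top to bottom as junction and surface proteins, receptors, secreted proteins, transcription factors, brain barrier genes, mural cell genes and Apold1. Most squares lie to the right of the circles, with a brain minus muscle difference of -3.31 for Aplnr, while the circles of Slco1a4 lie 4.06 units to the right of its squares.

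At least 1 log2 unit higher in wild-type brain on all 3 scales were 2 of the 33 members, both barrier genes, beside 16% of the genes tested in both tissues. That share leaves out genes tested in 1 tissue only, such as Slco1a4. Slco1a4, an organic anion transporter of brain capillaries, read 9.82, 9.84, 9.70 and 9.13 in wild-type brain and 5.47, 5.94, 5.46 and 5.37 in wild-type muscle. Every brain array was above every muscle array, a difference of 4.06 ± 0.18 (SE, n = 4 and 4; adjusted p = 7.88e-09), and 3.43 and 3.39 on the other 2 scales. Slco1a4 was too dim in muscle to be tested there, so these differences are sizes above a dim level and not the full contrast. Slc2a1, the glucose transporter of the barrier, read 11.04, 10.91, 11.23 and 11.21 in wild-type brain and 9.06, 8.82, 9.05 and 8.82 in wild-type muscle. Its brain arrays were likewise all higher, by 2.16 ± 0.11 (adjusted p = 1.74e-08), and its 3 probe sets gave differences of 2.16 to 2.42. Cldn5, the claudin of endothelial tight junctions, read 9.43, 9.55, 9.12 and 8.71 in wild-type brain against 7.97, 8.30, 8.13 and 8.03 in muscle. The groups did not overlap, but its difference of 1.10 ± 0.17 as deposited (adjusted p = 1.58e-04) became 0.28 and 0.42 on the other scales. Abcb1a, which encodes the drug pump P-glycoprotein, read 9.21, 9.30, 9.35 and 9.01 in wild-type brain and 8.72, 8.83, 8.66 and 8.60 in muscle. This difference of 0.52 ± 0.10 (adjusted p = 6.84e-04) became -0.30 and -0.16 on the other scales, so Abcb1a was not higher in brain on every scale.

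The windows upstream of Slco1a4 and Abcb1a are shown, barrier genes that differed in how far brain stood above muscle. They are the 250 bases before the RefSeq start. Capitals mark the 6 letters ACAATG or ACAAAG, on either strand. SOX factors such as the members Sox7, Sox17 and Sox18 are known to prefer these letters. The windows of Slc2a1 and Cldn5, the other barrier members, held 0 such matches, so the windows shown do not stand for all barrier members.
Slco1a4, GRCm38.p6 chr6:141856221-141856470, minus strand: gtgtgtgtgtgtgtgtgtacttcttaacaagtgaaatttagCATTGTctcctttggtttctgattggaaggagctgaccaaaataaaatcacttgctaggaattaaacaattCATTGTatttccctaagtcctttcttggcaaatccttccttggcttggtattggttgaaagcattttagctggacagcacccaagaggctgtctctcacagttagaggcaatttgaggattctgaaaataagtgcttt
Abcb1a, GRCm38.p6 chr5:8566841-8567090, plus strand: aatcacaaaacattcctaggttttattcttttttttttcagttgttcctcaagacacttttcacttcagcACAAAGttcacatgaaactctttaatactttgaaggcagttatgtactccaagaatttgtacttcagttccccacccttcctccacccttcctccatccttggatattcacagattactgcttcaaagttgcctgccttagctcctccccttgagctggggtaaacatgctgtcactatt
Promoter windows of 300 bases, 250 before to 50 after the start, were at hand for 20 members, which had 25 windows in all. ACAATG was in 12% of the members' windows and in 12.6% of all 32851 windows, and ACAAAG in 20% and 18.7%, so both shares were near the background. A match of letters describes the window and does not show that a factor binds there.

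Beyond the barrier, 5 members lay within 1 log2 unit of each other in the wild-type tissues on all 3 scales, a class that held 46.3% of the genes tested in both tissues. Besides Abcb1a they were Plvap, the diaphragm protein of fenestrated capillaries, and Ramp2, the partner of the adrenomedullin receptor. The others were Cspg4, the NG2 proteoglycan, listed here with the mural cell genes, and Apold1, a gene that activity induces in endothelium. Whole tissue does not show which cells of the brain the Cspg4 signal came from. Cspg4 differed by -0.06 ± 0.10 as deposited (adjusted p = 0.594) and by -0.79 and -0.74 on the other scales, and its other probe set gave 0.77, while Apold1 differed by 0.68 as deposited and by 0.00 on both other scales. Another 12 members were at least 1 unit higher in muscle on all 3 scales, beside 8.47% of the genes tested in both tissues: Pecam1, Cdh5, Kdr, Tie1, Vwf, Robo4, Erg, Fli1, Sox7, Rgs5, Calcrl and Aplnr. The sets are not alike, because Pecam1, Tie1, Robo4, Erg and Aplnr were too dim in brain to be tested there. Aplnr, the apelin receptor, read 5.33 to 5.60 in wild-type brain, too dim to be tested there, and 8.32 to 9.06 in muscle. Cdh5, the cadherin of endothelial junctions, read 7.23 to 7.66 in brain and 9.44 to 10.00 in muscle, a difference of -2.21 ± 0.14 (adjusted p = 1.01e-07). The remaining 14 members crossed 1 unit on some scales only. These classes rest on the brightest probe set of each gene, and other probe sets did not always report the same contrast. As deposited, those of Calcrl ranged from -1.59 to 1.31 and those of Sox7 from -1.67 to 0.27. For others of the 12, the weakest probe set was below 0 but within 1 unit. It gave -0.50 for Cdh5, -0.64 for Fli1, -0.81 for Rgs5, -0.85 for Erg and -0.91 for Aplnr.

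Lists of further genes known from barrier or from muscle vessels were set beside the members. The lists were read on the deposited scale only, where 60.2% of all genes were higher and 22.4% lower in wild-type brain (limma, adjusted p under 0.05). Of 16 tested genes in a list of other barrier genes, 12 were higher and 4 lower by the same rule. The list median was 1.13 against 0.54 over all genes. Slco1c1, a thyroid hormone transporter, differed by 5.04, and Mfsd2a, the lipid carrier of barrier endothelium, by 2.83. Among 10 tested genes of muscle and other peripheral capillaries, 8 were lower in brain and 1 higher. Fabp4 and Cd36, which bind and carry fatty acids, differed by -7.59 and -6.47, and both are also expressed by fat cells or fibres. Each of these 4 genes was dim in the lower tissue, with group means of 5.47 to 5.74.

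The main contrast of the study is PWS-IC del against wild type within a tissue. No member passed in brain: 0 of 27 tested members had an adjusted p under 0.05 (smallest 0.556), where 0.066% of all genes did, 9 of 13645. At an unadjusted limma p under 0.05, 7 members were lower and 0 higher in PWS-IC del brain, beside 2.91% of all genes lower and 5.29% higher. Below 0 were 23 of the 27, against 38.1% of all genes, and the median member differed by -0.24, against 0.06. The 2 genotypes did not overlap for 4 members, Slco1a4, Flt1, Kdr and Rgs5, all lower in PWS-IC del, beside 2.87% of all genes. Muscle fibre markers were lower too, 5 of 6 below 0 with a median of -1.91 and 2 at an unadjusted p under 0.05. The exception, Pvalb, differed by 0.49 and was bright in every brain array, at 11.34 to 12.87. With Pvalb, the summed intensity of the 6 was 4060 to 10200 in wild-type and 3670 to 8090 in PWS-IC del brain. The sum of Ckm, Acta1, Myh4 and Mylpf was 768 to 6450 in wild-type and 577 to 909 in PWS-IC del brain. Without wild-type brain 1 and 3, the arrays with the highest Ckm, 23 of 27 members were below 0 and the median was -0.19, against 0.02 over all genes. Without wild-type brain 1 and 2, 19 of 27 members were below 0 and the median was -0.09, against 0.03 over all genes. Pecam1, Icam2, Tie1, Robo4, Aplnr and Erg were too dim in brain to be tested and differed by -0.45 to 0.11.

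No member passed in muscle either: 0 of 32 tested members had an adjusted p under 0.05 (smallest adjusted p = 0.118, Rgs5), where 0.117% of all genes did, 16 of 13645. At an unadjusted limma p under 0.05, 10 members were lower and 0 higher in PWS-IC del muscle, beside 6.03% of all genes lower and 5.89% higher. Below 0 were 27 of 32, against 45.9% of all genes, and the median member differed by -0.25, against 0.02. For 8 members every PWS-IC del array was below every wild-type array, beside 5.86% of all genes: Flt1, Rgs5, Vwf, Egfl7, Abcb1a, Sox17, Pecam1 and Robo4. Slco1a4 was too dim in muscle to be tested and differed by -0.06. With array quality weights, which count less consistent arrays less, 8 of 32 members passed in muscle, beside 1862 of 13645 genes. With an intensity trend Rgs5 alone of the members passed (limma, adjusted p = 0.0485), beside 59 of 13645 genes.

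**Figure D2:**
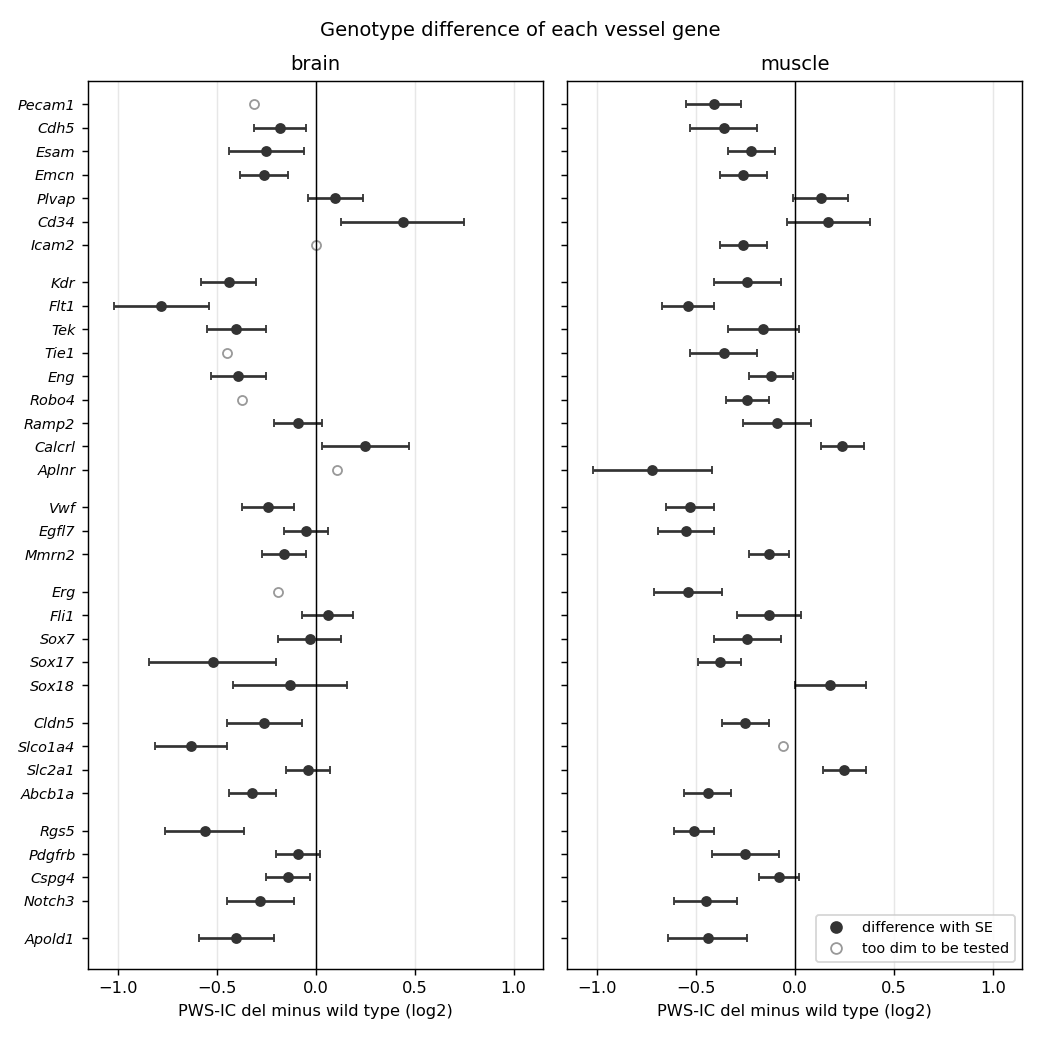
PWS-IC del minus wild type for each vessel gene in brain (left) and muscle (right), in log2 units with the standard error of the limma fit; open circles are genes too dim to be tested and the groups follow the order of the plot of wild-type levels. Points lie left of 0 for 23 of 27 tested genes in brain and 27 of 32 in muscle, and none passed the adjusted threshold.

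Brain and muscle share no array and are set side by side, but they may come from the same animals, so they do not count as independent samples. Of 26 members tested in both, 20 were below 0 in both, 3 above 0 in both and 3 opposite, while 23% of 12338 genes tested in both were below 0 in both. Flt1, Rgs5 and Abcb1a were lower at an unadjusted p under 0.05 in both tissues, as were 0.413% of all genes. The difference between the brain and the muscle genotype effects passed for 0 of 32 members, where 0.0879% of all genes passed, and 1 member had an unadjusted p under 0.05, beside 6.46% of all genes. That member was Egfl7, whose genotype difference was -0.05 in brain and -0.55 in muscle, an interaction of 0.50 ± 0.18 (limma, adjusted p = 0.658).

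Among the receptors, Flt1 had the smallest p in both tissues. Flt1, a VEGF receptor that also acts as a decoy, read 9.57, 9.47, 8.89 and 8.52 in wild-type brain and 8.40, 8.44 and 8.16 in PWS-IC del brain. In muscle Flt1 read 9.88, 9.78, 9.56 and 9.37 against 9.22, 9.08 and 9.03. All PWS-IC del arrays were below all wild-type arrays in both tissues, by -0.78 ± 0.24 (SE; adjusted p = 0.556) in brain and -0.54 ± 0.13 (adjusted p = 0.181) in muscle, and without wild-type brain 1 and 2 the brain difference was -0.37. The gene has 4 probe sets, which gave -0.30 to -0.78 in brain and -0.40 to -0.76 in muscle, and none of the 4 overlapped between genotypes in muscle.

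Kdr, the main signalling receptor for VEGF, read 7.97, 8.03, 7.76 and 7.47 in wild-type brain and 7.37, 7.44 and 7.31 in PWS-IC del brain, a difference of -0.44 ± 0.14 (adjusted p = 0.556), or -0.24 without wild-type brain 1 and 2. The genotypes were separate in brain, with wild-type brain 4 just above PWS-IC del brain 2, and they overlapped in muscle, where Kdr differed by -0.24 ± 0.17. Aplnr in muscle read 8.73, 9.06, 8.80 and 8.32 in wild type and 8.10, 8.64 and 7.29 in PWS-IC del. One PWS-IC del array, number 3, lay far below the rest, and the difference of -0.72 ± 0.30 (adjusted p = 0.393) was -0.36 without that array and -1.03 without PWS-IC del muscle 2. Tek and Eng, receptors for angiopoietin and for TGF-beta ligands, differed by -0.40 ± 0.15 and -0.39 ± 0.14 in brain, by -0.28 and -0.20 there without wild-type brain 1 and 2, and by -0.16 and -0.12 in muscle. Calcrl, the adrenomedullin receptor, was above 0 in both tissues, at 0.25 and 0.24, while its 3 probe sets ranged from -0.38 to 0.25 in brain and from -0.10 to 0.37 in muscle, and its partner Ramp2 stood at -0.09 in both. Without wild-type brain 1 and 2, Calcrl and Ramp2 differed by -0.03 and -0.14 in brain.

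**Figure D3:**
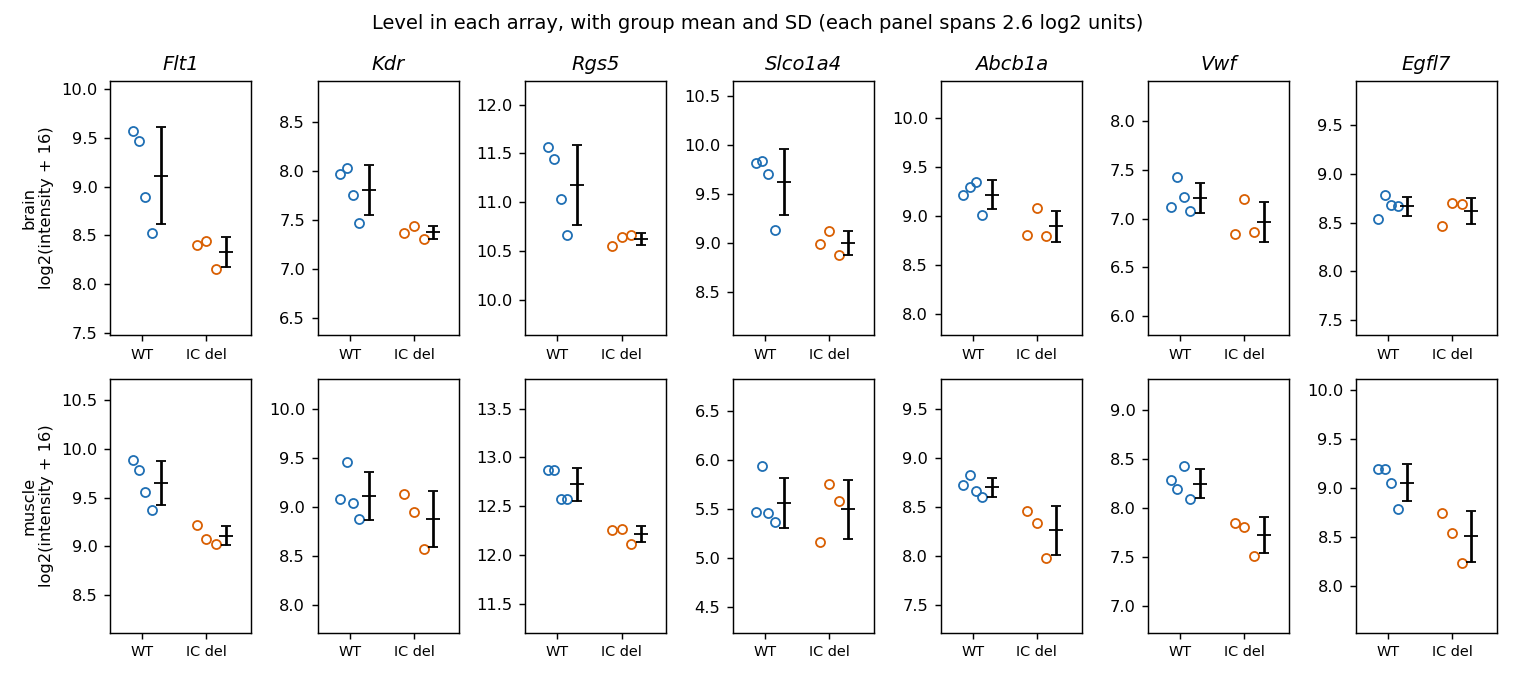
Level of 7 vessel genes in every brain array (upper row) and muscle array (lower row), log2(intensity + 16), for wild type (WT, 4 arrays) and PWS-IC del (IC del, 3 arrays), with group mean and SD beside the points; every panel spans 2.6 log2 units. In brain the wild-type points of Flt1, Rgs5 and Kdr spread upward from the PWS-IC del level, with wild-type brain 4 nearest to it, while in muscle the groups of Flt1, Rgs5, Abcb1a, Vwf and Egfl7 lie apart.

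All 3 secreted proteins were below 0 in both tissues, and 2 of them had separate groups in muscle. Vwf, the von Willebrand factor that endothelium stores for clotting, read 8.29, 8.19, 8.43 and 8.09 in wild-type muscle and 7.85, 7.81 and 7.51 in PWS-IC del muscle. The groups were separate, with a difference of -0.53 ± 0.12 (adjusted p = 0.15), and in brain Vwf read 7.12, 7.42, 7.22 and 7.08 against 6.84, 7.20 and 6.86, which overlapped (-0.24 ± 0.13). Egfl7, a matrix protein of sprouting endothelium, read 9.19, 9.19, 9.05 and 8.79 in wild-type muscle and 8.75, 8.54 and 8.23 in PWS-IC del muscle. Its highest PWS-IC del array lay just below its lowest wild-type array, and the difference was -0.55 ± 0.14 (adjusted p = 0.216). In brain Egfl7 read 8.54, 8.78, 8.68 and 8.67 against 8.47, 8.70 and 8.69, fully overlapping. The 4 Egfl7 probe sets gave -0.22 to -0.55 in muscle, all with separate groups, and -0.05 to -0.14 in brain. Mmrn2, a matrix protein that binds junctional endothelium, differed by -0.16 ± 0.11 in brain and -0.13 ± 0.10 in muscle.

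**Figure D4:**
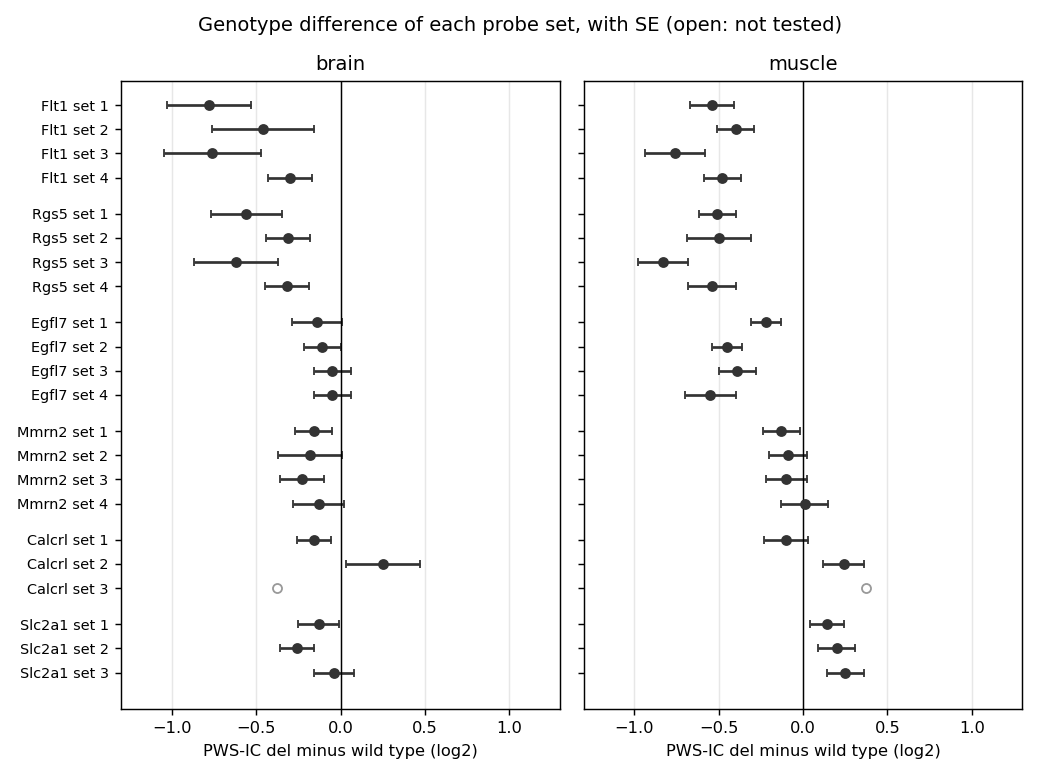
PWS-IC del minus wild type (log2, with standard error) for every probe set of 6 vessel genes in brain (left) and muscle (right); open circles were too dim to be tested. All 4 probe sets of Flt1 and of Rgs5 lie below 0 in both tissues, those of Egfl7 at -0.22 to -0.55 in muscle, and the probe sets of Calcrl lie on both sides of 0.

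Egfl7 has 3 annotated starts, and the first window is shown because it holds the CAGGAAG letters on both strands; ETS factors, among them the members Erg and Fli1, are known to prefer a GGAA core. Capitals mark CAGGAAG or its reverse complement.
Egfl7, GRCm38.p6 chr2:26580833-26581082, plus strand: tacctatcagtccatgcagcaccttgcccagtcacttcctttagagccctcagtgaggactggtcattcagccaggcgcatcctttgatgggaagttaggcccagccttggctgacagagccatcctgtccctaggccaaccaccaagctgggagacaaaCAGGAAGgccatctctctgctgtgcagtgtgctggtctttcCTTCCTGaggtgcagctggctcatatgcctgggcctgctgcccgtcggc
CAGGAAG was in 8 of the 25 member windows (32%) and in 13.3% of all windows, and the related letters CCGGAAG were in 0 member windows and 8.86% of all. The 7 members with CAGGAAG were Apold1, Calcrl, Cd34, Egfl7, Emcn, Erg and Robo4.

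For the transcription factors, Sox17 gave the lowest unadjusted p in each tissue among those tested in both. Sox17, a factor of arterial endothelium, read 8.60, 8.59, 8.08 and 7.36 in wild-type brain and 7.64, 8.08 and 7.21 in PWS-IC del brain. These groups overlapped (-0.52 ± 0.32), and the difference was -0.08 without wild-type brain 1 and 2 and -0.30 without PWS-IC del brain 3. In muscle Sox17 read 8.94, 9.16, 8.73 and 8.82 against 8.50, 8.60 and 8.48. There the groups were separate, by -0.38 ± 0.11 (adjusted p = 0.253). Erg, an ETS factor that maintains endothelial identity, read 7.15, 7.41, 7.08 and 6.69 in wild-type muscle and 6.82, 6.39 and 6.44 in PWS-IC del muscle. The difference of -0.54 ± 0.17 (adjusted p = 0.296) came from 1 probe set, and the other Erg probe set gave 0.50. Fli1, another ETS factor, differed by 0.06 in brain and -0.13 in muscle, and Sox7 and Sox18 by -0.03 and -0.13 in brain (0.03 and 0.29 without wild-type brain 1 and 2) and -0.24 and 0.18 in muscle.

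Barrier members in PWS-IC del brain were led by Slco1a4, which had the smallest p of all members there. Slco1a4 read 9.82, 9.84, 9.70 and 9.13 in wild type and 8.99, 9.12 and 8.88 in PWS-IC del. The genotypes did not overlap, although wild-type brain 4 lay next to the highest PWS-IC del array, and the difference of -0.63 ± 0.18 (adjusted p = 0.556) was -0.42 without wild-type brain 1 and 2. Abcb1a read 9.21, 9.30, 9.35 and 9.01 in wild-type brain against 8.81, 9.08 and 8.80, and 8.72, 8.83, 8.66 and 8.60 in wild-type muscle against 8.46, 8.34 and 7.98. The brain groups overlapped at 1 array of each genotype and the muscle groups did not, with differences of -0.32 ± 0.12 (adjusted p = 0.556) and -0.44 ± 0.12 (adjusted p = 0.236).

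Cldn5 read 9.43, 9.55, 9.12 and 8.71 in wild-type brain and 9.05, 8.95 and 8.83 in PWS-IC del brain. All 3 PWS-IC del arrays fell inside the wild-type range, and the difference of -0.26 ± 0.19 became 0.03 without wild-type brain 1 and 2. Slc2a1 read 11.04, 10.91, 11.23 and 11.21 in wild-type brain against 11.03, 11.17 and 10.98, a difference of -0.04 ± 0.11, or -0.16 without wild-type brain 1 and 2. Its 3 probe sets gave -0.26 to -0.04 in brain, and the lowest of them had separate groups. In muscle the gene read 9.06, 8.82, 9.05 and 8.82 against 9.35, 9.01 and 9.18, a difference of 0.25 ± 0.11 (adjusted p = 0.425). Slc2a1 is also made by astrocytes and muscle fibres. Over 18 other barrier genes tested in brain, 0 passed and 11 were below 0, beside 38.1% of all genes. The median was -0.08, or -0.12 with 13 below 0 without wild-type brain 1 and 2. The lowest p among them belonged to Itm2a (-0.37 ± 0.12), Foxq1 (-0.49 ± 0.19) and Slc7a5, an amino acid transporter (-0.28 ± 0.13), which differed by -0.32, -0.20 and -0.12 without those arrays.

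Mural cells were read through 4 members, all below 0 in both tissues, although whole tissue does not show which cells hold their RNA. Rgs5, a regulator of G-protein signalling in pericytes, read 11.57, 11.44, 11.03 and 10.67 in wild-type brain and 10.55, 10.65 and 10.67 in PWS-IC del brain. The lowest wild-type and the highest PWS-IC del array rounded to the same value, and the difference of -0.56 ± 0.20 (adjusted p = 0.556) was -0.23 without wild-type brain 1 and 2. In muscle Rgs5 read 12.87, 12.87, 12.58 and 12.58 against 12.26, 12.27 and 12.12. All PWS-IC del arrays were lower there, by -0.51 ± 0.10 or 29.9% on this scale, and its 4 probe sets gave -0.50 to -0.83. Notch3, the Notch receptor of vascular smooth muscle and pericytes, read 8.90, 9.10, 8.88 and 8.49 in wild-type muscle and 8.56, 8.51 and 8.09 in PWS-IC del muscle, which overlapped (-0.45 ± 0.16; adjusted p = 0.337). The other Notch3 probe set gave -0.43 in muscle with separate groups, at 7.32 to 7.44 in wild type and 6.78 to 7.14 in PWS-IC del. In brain Notch3 differed by -0.28 ± 0.17, and by -0.07 without PWS-IC del brain 3. Pdgfrb, the PDGF receptor through which endothelium recruits pericytes, differed by -0.09 in brain and -0.25 in muscle, and Cspg4 by -0.14 and -0.08. Another Pdgfrb probe set gave -0.32 ± 0.10 in brain (adjusted p = 0.614 over all probe sets) with separate groups. Without wild-type brain 1 and 2, Pdgfrb and Cspg4 differed by 0.03 and -0.04 in brain.

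Smooth muscle genes were also lower in PWS-IC del muscle at an unadjusted limma p under 0.05, as were 6.03% of all genes, though none passed. Tagln, Acta2 and Myh11, contractile proteins of larger vessels, differed by -0.65 ± 0.10, -0.56 ± 0.10 and -0.71 ± 0.14 (adjusted p = 0.0685, 0.084 and 0.106). Separate groups with PWS-IC del lower were found for 3 of 3 tested smooth muscle markers, beside 5.86% of all genes. Their summed intensity, with Cnn1, was 3300 to 3890 in wild-type and 2140 to 2620 in PWS-IC del muscle. In brain the sums were 1390 to 1730 and 1160 to 1410. Whether the larger vessels in a piece have a part in the values of Rgs5 and Notch3 was not tested. Fat cell markers ran differently, with wild-type muscle at summed intensities of 1960 to 9470 and PWS-IC del muscle at 2500 to 12900. Of 6 tested macrophage markers, 6 were at or above 0 in PWS-IC del muscle, beside 7381 of 13645 genes above 0. At an unadjusted limma p under 0.05, 3 of these markers were higher, beside 5.89% of all genes, and 0 passed.

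Of the junction and surface proteins, Pecam1 was the one whose brightest probe set had separate groups in muscle. A dimmer probe set of Cdh5 was also separate there, at 6.17 to 6.33 in wild type and 6.03 to 6.14 in PWS-IC del. Pecam1, an adhesion molecule at endothelial borders, read 8.75, 8.77, 8.57 and 8.51 in wild-type muscle and 8.49, 8.34 and 7.90 in PWS-IC del muscle. The groups lay close together, PWS-IC del 1 next to wild-type 4, and the difference of -0.41 ± 0.14 (adjusted p = 0.326) was -0.24 without PWS-IC del muscle 3. Icam2, a ligand for leukocyte integrins, read 7.53, 7.53, 7.29 and 7.21 against 7.27, 6.96 and 7.17 in muscle and overlapped (-0.26 ± 0.12, or -0.17 without PWS-IC del muscle 2). Emcn, a sialomucin of capillaries and veins, read 7.44, 7.70, 7.77 and 7.56 in wild-type brain and 7.22, 7.46 and 7.40 in PWS-IC del brain, overlapping at 1 array of each genotype (-0.26 ± 0.12), with the same difference in muscle. Cdh5 and Esam, both junction proteins, differed by -0.18 and -0.25 in brain, by -0.09 and 0.02 there without wild-type brain 1 and 2, and by -0.36 and -0.22 in muscle.

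Cd34 and Plvap ran the other way in both tissues. Cd34, a surface mucin of endothelium that fibroblasts and progenitors also carry, read 9.35, 9.69, 8.83 and 8.48 in wild-type brain and 9.10, 9.46 and 10.05 in PWS-IC del brain. The groups overlapped, and the difference of 0.44 ± 0.31 was 0.88 without wild-type brain 1 and 2 and 0.19 without PWS-IC del brain 3. Plvap differed by 0.10 ± 0.14 and 0.13 ± 0.14. Apold1 read 7.85, 7.90, 7.29 and 7.18 in wild-type brain against 7.14, 7.11 and 7.21, and 6.49, 6.83, 6.92 and 7.25 in wild-type muscle against 6.75, 6.10 and 6.46. Wild-type brain 1 and 2 were the high arrays, and the brain difference of -0.40 ± 0.19 was -0.08 without them, while in muscle it was -0.44 ± 0.20, or -0.27 without PWS-IC del muscle 2.

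**Figure D5:**
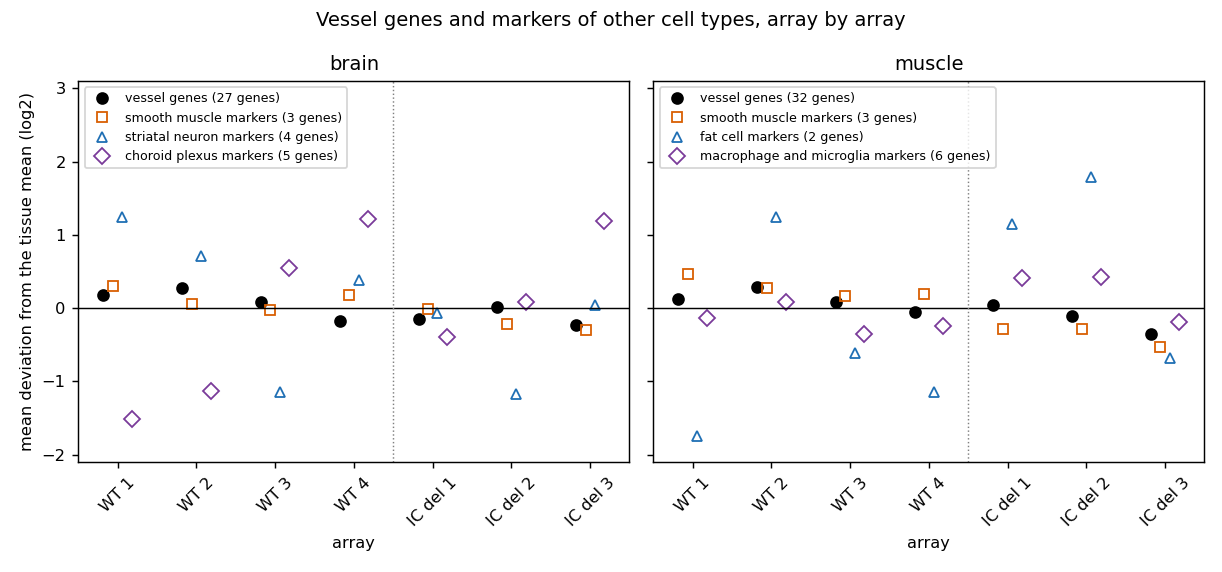
Mean deviation from the tissue mean (log2) of the vessel genes (filled circles) and of marker lists of other cell types (open symbols) in each of the 7 brain arrays (left) and 7 muscle arrays (right); the dotted line separates wild type (WT) from PWS-IC del (IC del). Vessel genes were highest in wild-type brain 2 (0.27) and wild-type muscle 2 (0.29) and lowest in PWS-IC del brain 3 (-0.23) and PWS-IC del muscle 3 (-0.35), and the genotypes overlapped in both tissues.

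The members' average level also differed between arrays of a genotype. Their mean deviation from the tissue mean was 0.18, 0.27, 0.08 and -0.17 in wild-type brain and -0.15, 0.01 and -0.23 in PWS-IC del brain, and 0.12, 0.29, 0.08 and -0.05 in wild-type muscle against 0.04, -0.11 and -0.35. Wild-type array 4 of each tissue lay among the PWS-IC del arrays. Striatal neuron markers deviated by 1.25 and 0.71 in wild-type brain 1 and 2 and choroid plexus markers by -1.51 and -1.13, so these arrays stood apart in those markers as well as in vessel genes. The part of dissection in the brain values was not tested.

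The VEGF pathway was followed beyond its receptors through lists of ligands and partners. Vegfa, the ligand of Flt1 and Kdr, differed by -0.38 ± 0.07 in muscle (adjusted p = 0.106), with 10.91 to 10.99 in wild type and 10.48 to 10.65 in PWS-IC del, and by 0.00 in brain. Over 9 VEGF and angiopoietin genes tested in muscle, 0 passed and 7 were below 0 (median -0.20), beside 45.9% of all genes below 0. In brain 0 of 10 passed and 3 were below 0 (median 0.07), beside 38.1% of all genes, or 6 (median -0.04) without wild-type brain 1 and 2. The brain genes with the smallest p were Nrp1, a VEGF co-receptor that neurons also express (0.58 ± 0.20), Ptprb (-0.47 ± 0.19) and the lymphatic ligand Vegfc (0.40 ± 0.18), which differed by 0.27, -0.28 and 0.44 without those arrays. Among 11 Notch, PDGF and TGF-beta genes per tissue 0 passed, with medians of -0.09 in brain (0.01 without those arrays) and -0.01 in muscle, and Hes1, a Notch target, differed by -0.89 ± 0.18 in muscle (adjusted p = 0.118). The Wnt list of brain endothelium had 0 of 11 passing and a median of -0.11 in brain (-0.06 without those arrays), with Apcdd1, a Wnt target, at -0.37 ± 0.13 and the ligand Wnt7a at -0.28 ± 0.12, both at -0.21 without those arrays.

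Other endothelial and pericyte genes were read from separate lists. Of 15 other endothelial genes tested in brain 12 were below 0, and of 18 in muscle 16, beside 38.1% and 45.9% of all genes. Their medians were -0.10 and -0.16, against 0.06 and 0.02 over all genes, and 0 passed in either. Without wild-type brain 1 and 2, 13 were below 0 in brain and the median was -0.12, beside 41.8% and 0.03 over all genes. Adgrf5, an adhesion receptor of endothelium, differed by -0.69 ± 0.14 in brain (adjusted p = 0.556) and -0.66 ± 0.11 in muscle (adjusted p = 0.0811), with separate groups in both, and by -0.57 in brain without wild-type brain 1 and 2. It read 8.92, 9.07, 8.92 and 8.55 in wild-type brain and 8.18, 8.30 and 8.03 in PWS-IC del brain. In muscle S1pr1, the sphingosine phosphate receptor that steadies junctions, differed by -0.47 ± 0.08 (adjusted p = 0.0773), while in brain, where other cells also express it, the difference was 0.17, or 0.08 without wild-type brain 1 and 2. Of 11 and 12 other pericyte genes tested in brain and muscle 7 were below 0 in each, beside the same 38.1% and 45.9%, and 0 passed. Their medians were -0.16 and -0.23, and without wild-type brain 1 and 2 the brain median was -0.04 with 7 below 0. Abcc9, a potassium channel subunit of brain pericytes that muscle fibres also express, differed by -0.51 ± 0.13 in brain, from 7.56 to 8.03 in wild type and 7.20 to 7.39 in PWS-IC del. Ndufa4l2, a mitochondrial protein of pericytes, differed by -0.39 ± 0.08 in muscle (adjusted p = 0.127).

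The probe sets were also tested one by one. Of the members' single-gene probe sets, 53 were tested in brain and 57 in muscle. Below 0 were 47 and 49, beside 46.5% and 50.1% of all probe sets tested. Separate groups with PWS-IC del lower were found for 9 and 21, beside 3.39% and 6.76% of all probe sets. None passed (limma, smallest adjusted p = 0.614 and 0.1), where 0.0711% and 0.142% of all probe sets did.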

How the data were processed

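RNA from brain and vastus lateralis was measured on 14 arrays, grouped by the sample titles. The authors deposited linear intensity, 1 value for each probe set and array, made with PLIER and the Affymetrix Expression Console per the submitters' processing notes; its settings and any scaling between arrays: not given in the sources used here. Here log2(intensity + 16) was taken. Where a gene had several probe sets naming it alone, the brightest on average stood for it; 932 probe sets with several symbols named no gene. Genes below the 0.25 quantile of a comparison's means were not tested. lmFit and eBayes of limma 3.58.1 (R 4.3.3) were fitted over 13645 genes per comparison, with 2-sided p-values adjusted by Benjamini-Hochberg and a threshold of 0.05. Members and lists were chosen with earlier results of these data known. Values of every array are printed for the members with the smallest p in each role group and tissue and for the barrier members, and from other lists up to 3 genes are named by p or level. The fits were tested on simulated data. Genotype changes of 0.5 log2 units were recovered for 20% of changed genes in brain and 46% in muscle. Those of 1 unit were recovered for 78% and 98%, so most changes as small as 0.5 units would be missed. The simulated noise was independent between genes, and changes of 2 and 4 units were planted too, which loosens the adjusted threshold. The real genotype fits passed only 9 genes in brain and 16 in muscle, so recovery in these data may be lower. Promoter windows are RefSeq's, of GRCm38.p6; the array values name no build. Alternatives covered pseudocount, scaling, filter, probe sets, trend, weights, block and left-out arrays; values of other gene lists without wild-type brain 1 and 2 were added after the data were seen, as mean differences with no test. The number of arrays limits the precision, and p-values measure only the spread between these samples.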

Additional observations from a re-analysis of the deposited data

Results flagged for a closer look

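In 66 combinations of a vessel gene and a group of 4 arrays, 1 array stood far from the other 3 by Dixon's gap test in 3 cases, where chance alone gives about 1 in 20. Sox7 read 8.88 in wild-type muscle 2 and 8.27 to 8.34 in the other wild-type muscle arrays. Sox18 read 8.64 in the same array and 8.15 to 8.20 in the others. Tie1 read 5.62 in wild-type brain 4, below 6.18 to 6.29 in the other wild-type brain arrays.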

How the results depend on the processing

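The direction of the members' median held in brain and muscle under every alternative run, and 0 members passed in either genotype comparison except in muscle with an intensity trend (1) and array weights (8). Filtering at the 0.5 quantile left 11 members below 0 in brain and 10 in the comparison of the genotype effects, and for the tissue contrast 17 members passing and 14 below 0 in wild type and 15 and 13 in PWS-IC del, because fewer genes were tested. Without wild-type brain 1 and 2 the median difference of the genotype effects was 0.17 with 10 below 0. Leaving out single arrays gave 19 to 24 members below 0 in brain, 25 to 28 in muscle and 11 (without PWS-IC del muscle 1) to 20 (without PWS-IC del muscle 3) for the difference of effects. The wild-type tissue median was -0.66 with a pseudocount of 64, -1.56 by quantile normalization, -1.51 by median centring and -0.67 over the mean of probe sets, and in PWS-IC del -1.55 and -1.39 by the 2 scalings. Between genotypes, same-number correlations were -0.44 to 0.38. Between brain and muscle they were -0.03 to 0.01 in wild type, against -0.04 to 0.06 for unlike numbers. In PWS-IC del they were 0.05, 0.07 and 0.15, against -0.14 to 0.10. Whether a number marks 1 animal was not settled by these values. With the number as a replicate block the medians were -0.28 in brain and -0.31 in muscle, with 0 members passing. Over all genes 3 to 24 passed in brain (9 as reported) and 2 to 1862 in muscle (16).

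Values that changed sign were mostly near 0, and the cause was not tested. In brain these were Sox7 (0.07 by quantile normalization, 0.05 by median centring, 0.04 over the mean of probe sets, 0.03 without wild-type brain 1 and 2), Egfl7 (0.03) and Slc2a1 (0.04) by median centring, and Calcrl (-0.10) and Fli1 (-0.03) over the mean of probe sets. Without wild-type brain 1 and 2 they were Calcrl (-0.03), Cldn5 (0.03), Esam (0.02), Pdgfrb (0.03) and Sox18 (0.29). Leaving out single arrays spanned, in brain, -0.38 to 0.04 for Sox18, -0.15 to 0.07 for Sox7, -0.09 to 0.03 for Egfl7, -0.01 to 0.18 for Fli1, -0.06 to 0.20 for Plvap and -0.19 to 0.02 for Ramp2, and in muscle -0.20 to 0.02 for Fli1, -0.06 to 0.43 for Cd34, -0.22 to 0.10 for Ramp2 and -0.36 to 0.06 for Tek. Ramp2 in muscle was 0.04 with array weights. Between the tissues, quantile normalization and median centring gave Abcb1a -0.30 and -0.16, Plvap -0.21 and -0.12, and Ramp2 -0.41 and -0.28 in wild type; in PWS-IC del they gave Plvap -0.27 and -0.10, Ramp2 -0.47 and -0.24, and quantile normalization gave Abcb1a -0.24. Cspg4 over the mean of probe sets was 0.36 in wild type and 0.20 in PWS-IC del.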

Other observations

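Among capillary genes of muscle, those with the smallest p had differences of either sign in PWS-IC del muscle, and none passed. Rbp7, a retinol-binding protein of peripheral endothelium, differed by 0.49 ± 0.10 (limma, adjusted p = 0.109) with every PWS-IC del array above every wild-type array. Aqp1, the water channel of non-barrier capillaries, differed by -0.65 ± 0.14 (adjusted p = 0.127) and Car4, a carbonic anhydrase at the capillary surface, by -0.72 ± 0.22 (adjusted p = 0.284), both with every PWS-IC del array lower. Of 11 genes tested in that list, 8 were below 0, beside 45.9% of all genes, and 0 passed. Gja4, a connexin of arterial endothelium, differed by -0.38 ± 0.11 and Ephb4, an ephrin receptor of veins, by -0.30 ± 0.12.

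The probe set that Ly6c1 shares with Ly6c2 read 10.19 to 10.66 in wild-type brain and 10.06 to 10.30 in PWS-IC del brain, and 11.04 to 11.63 and 11.23 to 11.40 in muscle, so the genotypes overlapped in both tissues. A pair of probe sets shared by Ramp2 and Vps25 differed by 0.15 and 0.27 in brain and by 0.10 and 0.24 in muscle.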
